A study of Mus musculus with 20 samples.

Results

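The response of MLE12 cells to the intracellular domain of Notch1 (NICD1) was measured 48 h after transfection on 7 of the 20 arrays of a time course, those of the 48 h replicates 1 to 7. MLE12 is an immortalised mouse lung epithelial line that resembles the surfactant-making type II cells of the alveoli. It was transfected with the plasmid NICD1-pIRES-DsRed2, which carries NICD1 and a red fluorescent protein, or with the empty vector, in both cases with Lipofectamine2000. Each dual-colour array held RNA of NICD1 cells and RNA of empty vector cells of the same time point, and the replicates were independent according to the series' design. The NICD1 RNA carried Cy3 on 4 arrays (replicates 1, 3, 5 and 7) and Cy5 on 3 (replicates 2, 4 and 6). The controls were thus transfected cells too, no untransfected cells were on the arrays, and the sources used here do not give the share of cells that took up plasmid.

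Notch receptors are cleaved when a ligand on a neighbouring cell binds them, and the released intracellular domain enters the nucleus. There it joins the DNA-binding protein RBPJ and a Mastermind co-activator and switches on targets such as the Hes and Hey repressors and the feedback inhibitor Nrarp. In the lung, Notch signalling takes part in the choice between airway cell fates. Type I interferons such as interferon beta act through receptors and the JAK-STAT pathway and induce a large set of antiviral genes.

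Values are log2 ratios of NICD1 over empty vector, so 1 means a doubled level and -1 a halved one. They are ratios only: no level of a gene can be read from them, and whether the defining markers of alveolar type II cells were expressed could not be checked. In such bulk RNA, fewer cells of a kind and less RNA per cell cannot be told apart. The column of replicate 3 was turned (multiplied by -1), because its ratio runs the other way as deposited. That direction, like that of all columns, rests on known Notch targets such as Nrarp, so the sign of those targets is no independent result. A mean ratio with a dye term was fitted to the 7 arrays with limma, with genes below an adjusted p of 0.05 counted as passed.

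The 7 arrays were not alike. Over the 17035 genes tested, the SD of the log2 ratios lay between 0.499 and 0.635 on replicates 1 to 4 and between 0.709 and 0.815 on replicates 5 to 7. Across genes, with a dye effect taken off, the correlation between arrays was 0.649 to 0.676 among replicates 5, 6 and 7, 0.0968 to 0.327 among replicates 1 to 4 and 0.0715 to 0.376 between the sets. The labels give no batch that separates them. Each set therefore got its own coefficient in a limma fit over the 20 arrays, and a gene was said to hold when it passed in both sets in the same direction.

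On the 7 arrays alone 233 genes passed, 1.37% of those tested, with 67 higher and 166 lower. In replicates 1 to 4, 703 genes passed (4.13%), with 1.76% of all genes higher and 2.37% lower. In replicates 5 to 7, 6567 passed (38.6%), 19.3% higher and 19.2% lower. The genes that held numbered 540 (3.17%), of which 229 were higher (1.34%) and 311 lower (1.83%). They were 76.8% of the genes that passed in replicates 1 to 4 and 8.22% of those that passed in replicates 5 to 7. A log2 ratio of at least 1 in both sets was reached by 15 of the higher genes (0.0881% of all tested) and 70 of the lower (0.411%). A further 21 genes passed in both sets with opposite signs.

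**Figure D1:**
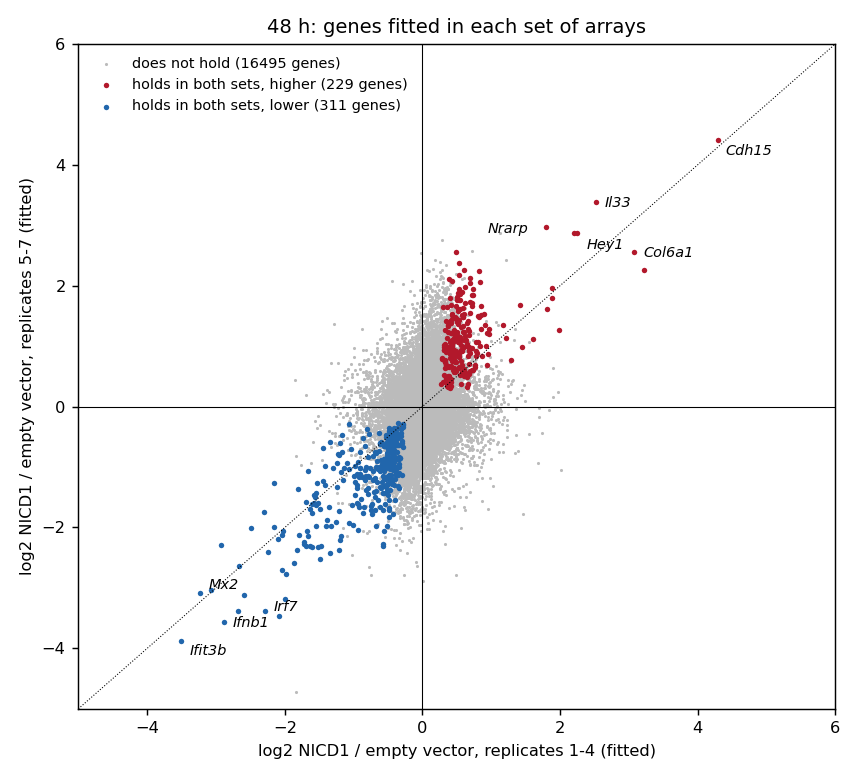
Fitted log2 ratios of NICD1 over empty vector at 48 h in replicates 1 to 4 (horizontal) and replicates 5 to 7 (vertical), 1 point per gene for 17035 genes, with the 229 genes that held higher in red, the 311 that held lower in blue and the rest in grey; the dotted line marks equal values. Most held genes lie farther from 0 on the vertical axis, whereas Cdh15, Col6a1, Mx2 and Ifit3b lie near the dotted line.

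Those that held higher had a median log2 ratio of 0.53 in replicates 1 to 4 and 1.07 in replicates 5 to 7, and those that held lower -0.59 and -1.07. Over all genes the median size, without sign, was 0.185 and 0.386. Of the 229 that held higher, 197 were larger in replicates 5 to 7, as were 255 of the 311 that held lower. The test of the difference between the sets was passed, either way, by 110 of those higher (48%) and 122 of those lower (39.2%). Of all genes 25% passed it. The rule chose these genes for 1 direction in both sets, so their signs on single arrays (215 of 228 higher genes with 7 values above 0 on every array, 300 of 310 lower genes below 0, and 7.35% and 7.47% of all genes) are a description only.

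How many genes held depended on single arrays and on the arrays of the other time points. Without replicate 4 the count was 183, and without replicate 1 it was 223. With both sets estimated from the 7 arrays of 48 h alone, 95 genes held, 15 higher and 80 lower. With each set fitted by itself, none passed by limma in replicates 1 to 4 (1858 genes at an unadjusted p under 0.05) and so none held. In each of the 7 fits that left out 1 array, 34 of the higher and 119 of the lower genes held. Of the 540 genes, 202 also passed on the 7 arrays alone, and the leading genes below are the 15 highest and 15 lowest of these.

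The gene with the highest ratio was Cdh15 (Entrez Gene 12555, chromosome 8), the gene of M-cadherin, a calcium-dependent adhesion molecule best known from muscle. Its log2 ratio was 3.36 on the lowest array, 4.22 at the median and 5.17 on the highest. All 7 arrays lay far above 0, and the values of the 2 sets overlapped. The fitted ratio was 4.38 ± 0.19 (SE, n = 7), which is 20.8-fold, with a limma adjusted p of 3.57e-05. The sets gave 4.30 and 4.41, a difference of 0.11 ± 0.33 (adjusted p = 0.874). Of 12 skeletal muscle genes none passed on the 7 arrays or held, and the muscle regulators Myod1 and Myog were at -0.12 and 0.06 (limma adjusted p of 0.525 and 0.766). Of 23 cadherin and tight junction genes the only other one that held was Cdh13, of the membrane-anchored T-cadherin, at 0.91 ± 0.15 (n = 7, range 0.51 to 1.52, limma adjusted p = 0.027). Over all genes 3.17% held. The pass of Cdh13 was lost without replicate 2, 4, 5, 6 or 7 (adjusted p up to 0.125).

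Direct Notch targets were among the leading genes. Hey1 (Entrez Gene 15213, chromosome 3), a transcriptional repressor, ranged from 1.87 over 2.61 to 3.42 on the lowest, middle and highest array. Nrarp (Entrez Gene 67122, chromosome 2), which limits Notch signalling by promoting turnover of the intracellular domain, ranged from 1.31 over 2.16 to 3.24. Heyl (Entrez Gene 56198, chromosome 4), a relative of Hey1, ranged from 0.61 over 1.64 to 2.89. All 3 genes were above 0 on every array, with Nrarp highest on replicates 5, 6 and 7 and Heyl lowest on replicate 7. The fitted ratios were 2.51 ± 0.19 for Hey1, 2.29 ± 0.24 for Nrarp and 1.71 ± 0.24 for Heyl (SE, n = 7), with limma adjusted p of 0.000347, 0.00202 and 0.0118. The columns were directed by such targets, so neither these signs nor these p-values are independent results. Nrarp differed between the sets, by 1.17 ± 0.28 (adjusted p = 0.00437), and Hey1 and Heyl did not pass that test. Heyl lost its pass without replicate 4, with a limma adjusted p of 0.0549.

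Because the direction of the columns rests on targets such as Nrarp, the higher sign of the Notch target list is no independent result. Of the 14 Notch target genes measured, 5 held higher and none held lower, beside 1.34% and 1.83% of all genes. The list median was 0.44 against -0.01 for all genes. Dtx1, which encodes the ubiquitin ligase Deltex1, was the fourth of the 5 that held, at 1.27 ± 0.20 (n = 7, limma adjusted p = 0.02), and Notch3, itself a receptor, the fifth. Dtx1 lost its pass without replicate 2, 4 or 6 (adjusted p up to 0.121). Hes1, a widely used Notch readout, was at 0.28 ± 0.14 (n = 7), between -0.21 and 1.01 on single arrays, with a limma adjusted p of 0.248. Hey2 was at -0.40 ± 0.22 (n = 7, limma adjusted p = 0.266), and its arrays spread from -0.88 to 0.83. Gata3, Myc and Ccnd1 passed in replicates 5 to 7, at 1.58, 0.89 and 0.74, and were at 0.09, 0.02 and -0.05 in replicates 1 to 4. The difference between the sets passed for each of these 3 genes (adjusted p of 0.000549, 0.00172 and 0.0021).

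Among 26 receptors, ligands and processing genes, 3 held, all higher, where 1.34% of all genes held higher. Notch1 was at 1.07 ± 0.18 (n = 7, limma adjusted p = 0.0309), with a range of 0.47 to 1.74 over the arrays. Its 11 rows ranged from 0.31 to 1.84 and all lay above 0, and rows that match the coding part in NICD1 would also read RNA made from the plasmid. Notch3 ranged from 0.17 to 1.43 and was fitted at 0.90 ± 0.16 (n = 7, limma adjusted p = 0.0413). The passes of Notch1 and Notch3 were each lost without any single array other than replicate 3, with adjusted p up to 0.161 and 0.192. Jag2, a Notch ligand, was between 0.37 and 0.74 on replicates 1 to 4 and between 1.81 and 2.21 on replicates 5 to 7, with no overlap. It held, at 0.53 and 1.95 in the sets, but did not pass on the 7 arrays (limma adjusted p = 0.0777), and its sets differed by 1.42 ± 0.17 (adjusted p = 2.32e-05). The ligand Jag1, at 0.71 ± 0.24, did not pass on the 7 arrays (n = 7, limma adjusted p = 0.12) and spread from -0.31 to 1.64. The DNA-binding partner Rbpj was at 0.29 ± 0.14 (n = 7, limma adjusted p = 0.227). The ligand Dll1, the secretase subunits Psenen and Aph1a and the Fringe gene Mfng lay below 0, between -0.32 and -0.03, and did not pass at 48 h.

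**Figure D2:**
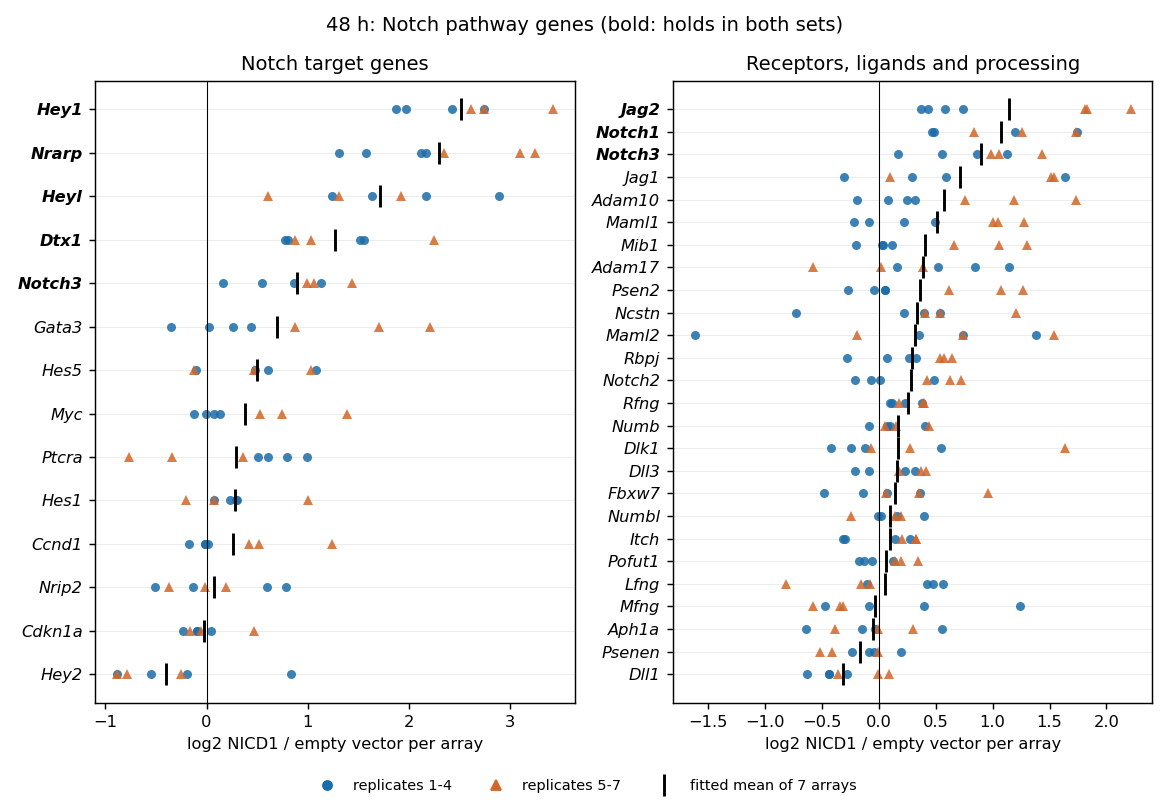
Log2 ratio of NICD1 over empty vector on each 48 h array for 14 Notch target genes (left) and 26 receptors, ligands and processing genes (right), circles for replicates 1 to 4, triangles for replicates 5 to 7, and a vertical tick for the fitted mean; bold names held in both sets, and Notch3 is on both lists. Hey1, Nrarp, Heyl and Dtx1 lie above 0 on all arrays, whereas Jag2, Gata3, Adam10 and Mib1 are high on the triangles.

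Col6a1 (Entrez Gene 12833, chromosome 10), a chain of type VI collagen, ranged from 2.10 over 2.55 to 4.67. Il33 (Entrez Gene 77125, chromosome 19), an alarm cytokine of barrier epithelia, ranged from 1.65 over 2.87 to 4.08. Nts (Entrez Gene 67405, chromosome 10), the precursor of the peptide neurotensin, ranged from 1.77 over 2.59 to 5.23. Each gene was above 0 on every array, and 1 array stood above the rest for Col6a1 (replicate 2) and for Nts (replicate 1). The fitted ratios were 2.96 ± 0.20, 2.87 ± 0.27 and 2.75 ± 0.32 (SE, n = 7), with limma adjusted p of 0.000297, 0.00117 and 0.0038. None of the 3 passed the difference between the sets. Without any 1 array the adjusted p of Nts stayed at or under 0.0293 and that of Col6a1 at or under 0.00248.

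Col6a1 was joined by other matrix genes. Of 22 collagen and matrix genes measured, 6 held higher and none lower, against 1.34% and 1.83% of all genes, and the list median was 0.54. Col6a2, whose gene neighbours Col6a1, was at 1.21 ± 0.11 (n = 7, range 0.93 to 1.66, limma adjusted p = 0.00117). Col18a1, the third gene of that run on chromosome 10, was at 1.11 ± 0.13 (n = 7, range 0.83 to 1.51, limma adjusted p = 0.00426). Col16a1 and Col1a1 were at 1.21 and 1.09. Both passes on the 7 arrays were lost without replicate 4, 5, 6 or 7, and that of Col16a1 also without replicate 1, with limma adjusted p up to 0.144 for Col1a1 and 0.192 for Col16a1. Col5a3, of a fibrillar collagen, was not on the list and was measured on 6 arrays, between 1.55 and 2.17, with a fitted ratio of 1.84 ± 0.14 (n = 6, limma adjusted p = 0.000594). Col3a1 and Col1a2, fibrillar collagens typical of fibroblasts, were at -0.01 (limma adjusted p = 0.974) and 0.28 (limma adjusted p = 0.157). Of 9 fibroblast and smooth muscle genes, only Col1a1 held. All 11 rows of Col1a1 lay above 0.

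Pkp1 (Entrez Gene 18772, chromosome 1), which encodes plakophilin 1, a desmosome plaque protein, ranged from 2.02 over 2.26 to 3.52. No array came near 0, and the fitted ratio was 2.49 ± 0.20 (n = 7, limma adjusted p = 0.000418). Of 14 desmosome and plakin genes 3 held higher and none lower (1.34% and 1.83% of all genes), with a list median of 0.37. Dsp, the plakin desmoplakin, was at 0.53 in replicates 1 to 4 and 1.76 in replicates 5 to 7, which differed by 1.23 ± 0.19 (adjusted p = 0.000142). Perp, at 0.65 and 0.33, held with the higher value in replicates 1 to 4. The desmosomal cadherins Dsc1, Dsc2, Dsc3, Dsg2 and Dsg3 lay between -0.15 and 0.46 and did not pass at 48 h. Among 12 keratins Krt16 and Krt17, inducible keratins of stressed epithelia held at 1.04 and 0.58, whereas Krt5 and Krt14 of basal cells were at 0.02 and -0.30 and did not pass. Krt16 lost its pass on the 7 arrays without any single array but replicate 4 (limma adjusted p up to 0.175).

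The other leading genes among the 15 highest had smaller ratios. Glod5, a glyoxalase domain gene, ranged from 1.44 to 2.71 and was fitted at 1.92 ± 0.16 (n = 7, limma adjusted p = 0.000589). Rspo1, whose product R-spondin 1 strengthens Wnt signalling, lay between 1.19 and 1.75 on all 7 arrays, at 1.55 ± 0.12 (limma adjusted p = 0.000405). Of 27 Wnt targets and Frizzled genes none held (3.17% of all genes did), and Axin2, a feedback target of Wnt signalling, was at 0.92 ± 0.19 (n = 7, limma adjusted p = 0.0596). Hp, the haemoglobin-binding plasma protein haptoglobin, was at 1.40 ± 0.20 (n = 7, limma adjusted p = 0.0119), and without replicate 2 or 6 it did not pass (adjusted p up to 0.0783). Depp1 was at 1.75 ± 0.24 (n = 7, limma adjusted p = 0.0106), but it held in only 1 of the 7 fits that left out an array. The zinc finger gene Zfp521 was between 0.79 and 0.94 on replicates 1 to 4 and between 1.86 and 2.65 on replicates 5 to 7, with no overlap, and it did not pass on the 7 arrays without replicate 2, 4, 5, 6 or 7 (limma adjusted p up to 0.189). The 2 rows of Wfdc3 disagreed, at 0.09 and 2.46, so its mean of 1.27 rests on 1 probe.

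**Figure D3:**
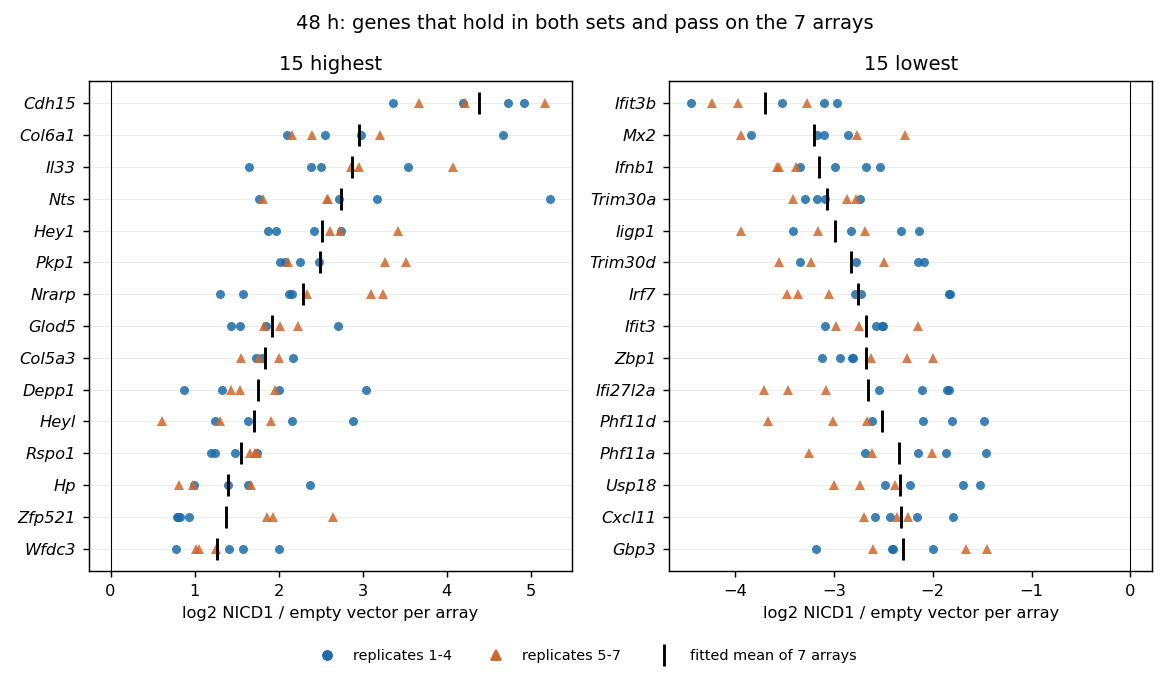
Log2 ratio of NICD1 over empty vector on each 48 h array for the 15 highest (left) and 15 lowest (right) genes among those that held in both sets and passed on the 7 arrays, circles for replicates 1 to 4, triangles for replicates 5 to 7 and ticks for the fitted mean. No array of any of these 30 genes lies on the other side of 0, and Cdh15 stands apart at the top.

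Of the 15 lowest genes, 13 were on the interferon-related lists, and the other 2 were the paralogs Phf11a and Phf11d. Ifnb1 (Entrez Gene 15977, chromosome 4), interferon beta itself, was at -2.54 on the highest array, -3.34 at the median and -3.58 on the lowest. Its fitted ratio was -3.15 ± 0.17 (n = 7), an 8.86-fold lower level, with a limma adjusted p of 8.8e-05. Replicates 5 to 7, between -3.58 and -3.38, were all lower than replicates 1 to 4, and the sets did not differ by the test (-0.68 ± 0.60, adjusted p = 0.483). Ifit3b (Entrez Gene 667370, chromosome 19), an antiviral protein of the IFIT family, ranged from -4.45 over -3.52 to -2.97 and was fitted at -3.70 ± 0.17 (n = 7, limma adjusted p = 3.57e-05). Mx2 (Entrez Gene 17858, chromosome 16), a dynamin-like antiviral GTPase, ranged from -3.94 over -3.10 to -2.28 and was fitted at -3.20 ± 0.15 (n = 7, limma adjusted p = 3.57e-05). Irf7, the transcription factor that amplifies interferon production, was between -1.82 and -3.47 and fitted at -2.76 ± 0.22 (n = 7, limma adjusted p = 0.000419). Each kept its pass without any single array, with adjusted p no higher than 0.00478.

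Of the 30 antiviral interferon-stimulated genes measured, 29 held lower, beside the 1.83% of all genes that held lower, and none held higher. The list median was -1.68, and the array medians lay between -1.96 and -1.43. Oas1g was the exception, at -1.70 ± 0.38 (n = 6, limma adjusted p = 0.078), with 1 array at 0.16. The largest falls after Ifit3b and Mx2 were those of Ifit3, Zbp1, Ifi27l2a and Usp18, at -2.68, -2.68, -2.65 and -2.33. Zbp1 senses nucleic acids in the Z form, and Usp18 removes ISG15 from proteins and dampens interferon receptor signalling. Isg15 itself, a ubiquitin-like modifier, was at -1.92 ± 0.16 (n = 7, range -2.51 to -1.41, limma adjusted p = 0.000589). Bst2, which tethers budding virions to the cell surface, was at -1.58 ± 0.12 (n = 7, limma adjusted p = 0.000358). The smallest fall was in Ifit2, which held at -0.78 and -0.45 in the sets but did not pass on the 7 arrays (limma adjusted p = 0.0653). Of the 29 genes, 24 held in each of the 7 fits that left out 1 array. Ifi27, interferon-inducible by its name but not on the list, went the other way. It held higher, also in each of these 7 fits, and passed on the 7 arrays at 0.73, above 0 on all 7.

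The antiviral genes were low in both sets. The medians of the 30 members were -1.61 in replicates 1 to 4 and -1.86 in replicates 5 to 7, and 7 of 30 (23.3%) passed the test of the difference, against 25% of all genes. Of the 251 genes that held lower outside the interferon-related lists, which may include other interferon-induced genes, 108 passed that test. Their medians were -0.52 and -1.01. Members differed between the sets in both directions: Ifi27l2a was lower in replicates 5 to 7 by 1.38 ± 0.27 (adjusted p = 0.000988), and Rsad2 fell by 2.16 in replicates 1 to 4 and by 1.26 in replicates 5 to 7 (adjusted p of the difference 0.00478). Ifit3 was at -2.67 and -2.64.

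The interferon-inducible GTPases, which attack the vacuoles of intracellular parasites, were lower as well. Of 12 measured, 9 held lower (1.83% of all genes) and none higher, all 9 of them in each fit that left out 1 array, and the list median was -1.55. Iigp1 ranged from -3.93 to -2.14 and was fitted at -2.98 ± 0.18 (n = 7, limma adjusted p = 0.000142). Gbp3 ranged from -3.18 to -1.45 and was fitted at -2.31 ± 0.16 (n = 7, limma adjusted p = 0.000297). Irgm1 was the least changed member, at -0.40 ± 0.11 (n = 7, limma adjusted p = 0.0943), while its relative Irgm2 was at -1.43 ± 0.12 (n = 7, limma adjusted p = 0.000419). Probes of near-identical copies, as Ifit3 and Ifit3b, Trim30a and Trim30d, the Oas1 genes and the Gbp genes, can read each other's RNA, so their values are not independent.

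**Figure D4:**
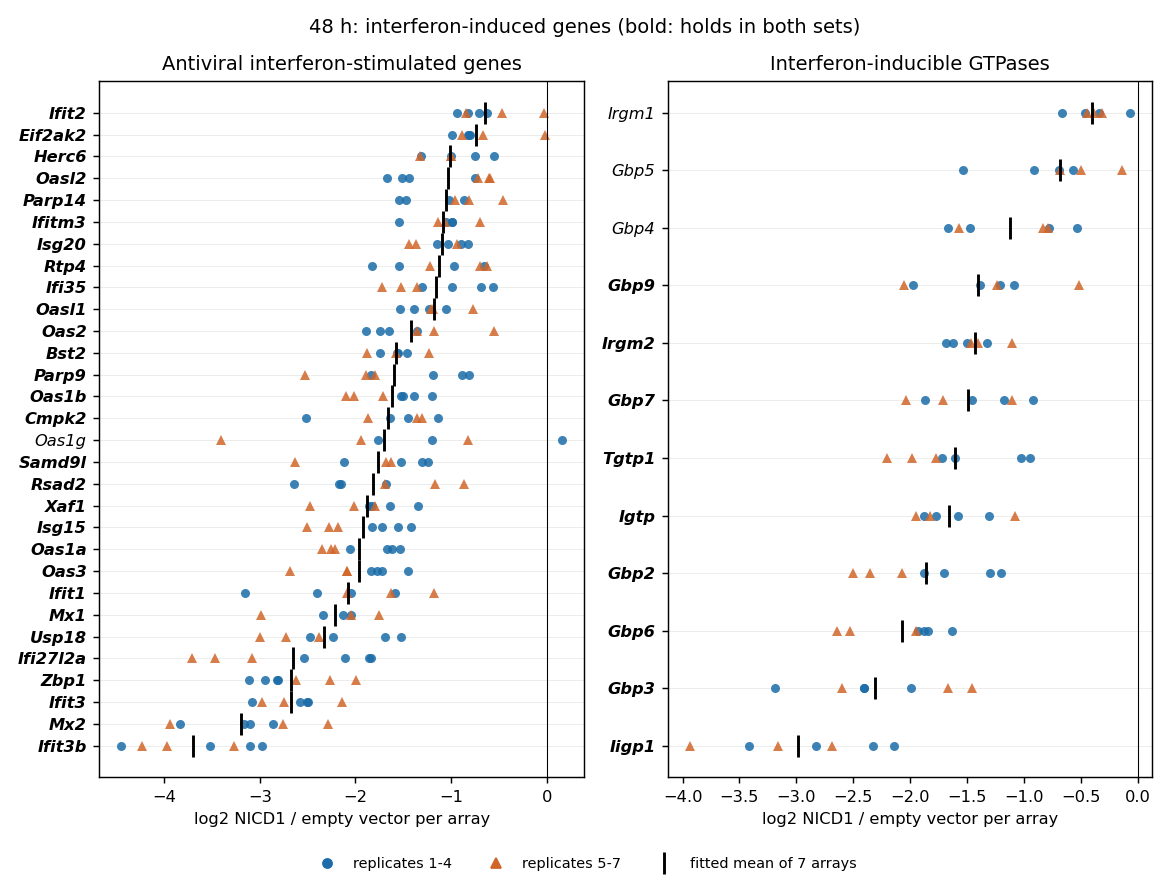
Log2 ratio of NICD1 over empty vector on each 48 h array for 30 antiviral interferon-stimulated genes (left) and 12 interferon-inducible GTPases (right), circles for replicates 1 to 4, triangles for replicates 5 to 7 and ticks for the fitted mean; bold names held in both sets. Apart from 1 array of Oas1g at 0.16, every point lies below 0, and circles and triangles are mixed along most rows.

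The promoters of these genes were searched for short motifs in windows of 250 bases before to 50 bases after the transcript start, from RefSeq (build GRCm38.p6), with windows for 13652 of the genes tested. The motif GAAA, any 2 bases and GAAA again, a core of the interferon-stimulated response element, was present on either strand in 3.25% of all 17004 windows, in 16.9% of the 301 windows of genes that held lower and in 1.67% of the 239 windows of genes that held higher. For the antiviral genes that held it was in 10 of 22 windows (45.5%), while TGACTCA, the AP-1 site, was in 18.2% of these 22 and GTGGGAA, a core of the RBPJ site, in 9.09%. For the genes that held lower outside the interferon-related lists, the interferon response motif was in 9.52% of 252 windows. That group was set only by absence from those lists and may include other interferon-induced genes. Among the 15 lowest genes 9 had a window and 6 of these held the motif, and among the 15 highest none of 9 did. The 6 include the near-identical copies Ifit3 and Ifit3b, and Trim30a and Trim30d, so they are not separate cases. GTGGGAA was in 6.13% of all windows, 4.18% of those of genes that held higher and 5.32% of those that held lower. TGACTCA was in 4.36%, 5.02% and 6.31% of the same. The interferon response motif can overlap itself, and a match describes letters only.

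Windows of the Notch target Nrarp, of Cdh15 and of 4 of the genes with the interferon response motif are shown, to place the motif among leading higher and lower genes. They are from RefSeq (GRCm38.p6) and written 5′ to 3′ along the gene, with capitals for the interferon response motif on either strand. For Trim30a and Gbp3 1 of 2 windows is shown. The window not shown holds the motif for Trim30a but not for Gbp3. Trim30a, Phf11a and Gbp3 were chosen after their values were seen.
Nrarp (chr2:25180508-25180807, plus strand): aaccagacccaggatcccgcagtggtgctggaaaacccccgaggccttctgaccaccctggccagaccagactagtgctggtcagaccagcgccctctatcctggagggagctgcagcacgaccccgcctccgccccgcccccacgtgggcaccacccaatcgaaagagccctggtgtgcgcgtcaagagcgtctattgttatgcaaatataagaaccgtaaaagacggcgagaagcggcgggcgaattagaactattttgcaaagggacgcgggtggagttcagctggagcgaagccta
Cdh15 (chr8:122848124-122848423, plus strand): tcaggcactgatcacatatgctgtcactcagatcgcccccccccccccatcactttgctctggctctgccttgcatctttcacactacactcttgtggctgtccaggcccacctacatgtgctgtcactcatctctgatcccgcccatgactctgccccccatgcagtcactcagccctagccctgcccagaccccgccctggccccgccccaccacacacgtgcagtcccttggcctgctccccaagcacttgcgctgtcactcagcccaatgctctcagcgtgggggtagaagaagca
Ifit3b (chr19:34607707-34608006, plus strand): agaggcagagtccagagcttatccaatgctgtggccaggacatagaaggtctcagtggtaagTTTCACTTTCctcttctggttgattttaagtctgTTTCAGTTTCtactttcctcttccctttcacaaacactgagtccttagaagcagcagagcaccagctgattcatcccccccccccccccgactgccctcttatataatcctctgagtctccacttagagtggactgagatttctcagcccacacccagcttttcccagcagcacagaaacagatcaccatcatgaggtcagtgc
Trim30a (chr7:104465144-104465443, minus strand): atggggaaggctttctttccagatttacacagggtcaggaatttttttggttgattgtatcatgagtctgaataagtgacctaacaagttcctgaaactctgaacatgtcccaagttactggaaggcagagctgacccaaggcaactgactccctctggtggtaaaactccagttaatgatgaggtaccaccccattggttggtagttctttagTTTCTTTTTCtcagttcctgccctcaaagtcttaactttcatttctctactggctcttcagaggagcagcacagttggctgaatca
Phf11a (chr14:59297473-59297772, minus strand): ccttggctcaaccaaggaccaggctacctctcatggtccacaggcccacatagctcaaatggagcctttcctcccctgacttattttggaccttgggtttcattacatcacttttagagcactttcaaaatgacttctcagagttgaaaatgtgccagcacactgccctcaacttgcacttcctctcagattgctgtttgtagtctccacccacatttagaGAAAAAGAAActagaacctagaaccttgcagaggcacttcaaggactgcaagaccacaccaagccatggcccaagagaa
Gbp3 (chr3:142559794-142560093, plus strand): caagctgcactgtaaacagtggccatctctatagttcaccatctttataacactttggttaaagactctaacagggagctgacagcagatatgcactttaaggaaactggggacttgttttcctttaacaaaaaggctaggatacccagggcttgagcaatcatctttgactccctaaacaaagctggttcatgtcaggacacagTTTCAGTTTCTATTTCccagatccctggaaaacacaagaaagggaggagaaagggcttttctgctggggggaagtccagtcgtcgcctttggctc
The Nrarp and Cdh15 windows hold none of the 3 motifs. In Ifit3b the matches start 188 and 154 bases before the transcript start, in Trim30a 36 and in Phf11a 29 bases before it. In Gbp3 the 2 matches overlap and start 45 and 39 bases before it. The windows of Ifnb1, Irf7 and Phf11d, also among the 15 lowest, hold no interferon response motif, and that of Ifnb1 holds GTGGGAA.

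Upstream parts of interferon production and signalling moved unequally. Of 15 nucleic acid sensors, 6 held lower (1.83% of all genes) and none higher, with a median of -0.33, and 2 of the 6 held in every fit that left out 1 array. The RNA helicase Ddx60 was at -2.05 ± 0.15 (n = 7, limma adjusted p = 0.000347), the DNA sensor Ifi204 at -1.83 ± 0.19 (n = 7, limma adjusted p = 0.00182) and the RNA sensor regulator Dhx58 at -1.59 ± 0.10 (n = 7, limma adjusted p = 0.000244). Tlr3, a receptor for double-stranded RNA, was at -1.06 ± 0.13 (n = 7, limma adjusted p = 0.00683), and Ifih1, the sensor MDA5, at -0.97 ± 0.14 (n = 7, limma adjusted p = 0.0118). Ifih1 did not pass without replicate 4 (adjusted p = 0.0756). The adaptors Mavs and Sting1 were at 0.30 and 0.35 and did not pass (limma adjusted p of 0.158 and 0.266), and the DNA sensor Cgas was at -0.07 (limma adjusted p = 0.724).

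Among 22 interferon regulatory factors and JAK-STAT genes, Irf7 and Stat2 held lower and Socs3 higher, where 1.83% and 1.34% of all genes did. Stat2, which interferon itself induces, lay between -2.04 and -1.30 and was fitted at -1.81 ± 0.13 (n = 7, limma adjusted p = 0.000347). Its partner Irf9 passed on the 7 arrays at -0.63 (limma adjusted p = 0.0463) but did not hold in both sets. The interferon receptor genes Ifnar1 and Ifnar2 were at 0.10 and 0.11, and the constitutive factor Irf3 at 0.02, with limma adjusted p of 0.624, 0.626 and 0.924. Socs3, a feedback inhibitor of cytokine receptors, held with 0.37 and 1.34 in the sets but did not pass on the 7 arrays (limma adjusted p = 0.0851).

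Cytokines and chemokines did not move as a block. Of 20 measured, Ifnb1, Cxcl11 and Il6 held lower and Il33 and Ccl20 held higher, with a list median of 0.02. Over all genes 1.83% held lower and 1.34% higher. Cxcl11, an interferon-induced attractant of T cells, was between -2.69 and -1.80 and fitted at -2.32 ± 0.14 (n = 7, limma adjusted p = 0.000142). Il6, an inflammatory cytokine, was at -1.62 ± 0.17 (n = 7, range -2.43 to -1.08, limma adjusted p = 0.00202), and all 10 of its rows were below 0. Cxcl10, usually induced together with Cxcl11, was at -0.75 with arrays from -1.57 to 0.58 (limma adjusted p = 0.124), and Ccl5 at -0.97 (limma adjusted p = 0.0912). Both were low in replicates 1 to 4, at -1.28 and -1.51, and near 0 in replicates 5 to 7, at -0.01 and -0.16, and the difference passed (adjusted p of 0.00256 and 0.00028). The interferon alpha gene Ifna2 passed on the 7 arrays at -1.49 (limma adjusted p = 0.0118) but did not hold in both sets. Tnf and Ccl2 were at -0.15 and 0.04. Of 15 NF-kB feedback genes none held, which is near the 3.17% of all genes, with Nfkbia at 0.46 (limma adjusted p = 0.0943). In replicates 5 to 7, 7 of the 15 passed higher and 1 lower, against 19.3% and 19.2% of all genes. None passed in replicates 1 to 4.

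Of 12 TRIM genes, which encode ubiquitin ligases, 5 held lower (1.83% of all genes), led by Trim30a at -3.07 ± 0.12 (n = 7, range -3.42 to -2.73, limma adjusted p = 3.57e-05). Trim21, a cytosolic antibody receptor, was at -1.12 ± 0.14 (n = 7, limma adjusted p = 0.00569). Of 17 antigen presentation genes 6 held lower, with a list median of -0.69. The immunoproteasome subunits Psmb9 and Psmb8, neighbours on chromosome 17, were at -1.80 ± 0.22 and -1.43 ± 0.15 (n = 7, limma adjusted p of 0.00473 and 0.00175). Psmb9 was lower in replicates 5 to 7, by 1.09 ± 0.18 (adjusted p = 0.000238). B2m, the light chain of class I molecules, was at -0.88 ± 0.14 (n = 7), with all 12 rows below 0. The pass of B2m on the 7 arrays was lost without replicate 2, 4 or 6, that of H2-M3 without replicate 1, 4, 5, 6 or 7 and that of Psmb10 without any single array but replicate 7, with limma adjusted p up to 0.11, 0.181 and 0.169.

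Casp1 and Casp4, neighbouring caspase genes of inflammatory cell death, were at -1.02 ± 0.14 and -1.20 ± 0.20 (n = 7, limma adjusted p of 0.0114 and 0.027), and they were the only 2 of 21 apoptosis regulators that held. Neither passed on the 7 arrays without replicate 4 or 6, nor Casp4 without replicate 5 or 7 (adjusted p up to 0.0657 for Casp1 and 0.146 for Casp4). Of 8 genes on the galectin list 3 held lower, against 1.83% of all genes. They were Lgals9 at -1.24, Lgals8 at -0.63 and Lgals3bp, of a protein that binds galectins, at -0.88. The pass of Lgals9 on the 7 arrays was lost without replicate 2, 5, 6 or 7 and that of Lgals3bp without any but replicate 7 (limma adjusted p up to 0.136 and 0.185), and Lgals8 did not pass there. Of 22 genes of the ATF4 and unfolded protein response, Ddit3, Atf4, Trib3 and Phgdh held lower and none higher, with a list median of -0.06. In replicates 5 to 7 the list went both ways, with 8 members higher and 7 lower, and Asns and Slc7a5, of amino acid synthesis and uptake, were at 1.03 and 1.03 in that set and at -0.46 and 0.04 in replicates 1 to 4. Ddit3, the stress factor CHOP, was at -0.996 ± 0.13 (n = 7, range -1.55 to -0.57, limma adjusted p = 0.00771), and without replicate 6 its adjusted p was 0.0556. Atf4 was at -0.72 ± 0.16, and it did not pass on the 7 arrays (n = 7, limma adjusted p = 0.0689). The chaperone Hspa5 of the unfolded protein response was at -0.15 (limma adjusted p = 0.558).

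Rises that held were also found among immediate early, lipid and cell cycle genes, mostly with larger ratios in replicates 5 to 7. Fos, a subunit of the AP-1 factor, was at 1.04 ± 0.13 (n = 7, range 0.49 to 1.64, limma adjusted p = 0.00763) and held in every fit that left out 1 array. Egr1, an immediate early factor, was between 0.39 and 0.77 on replicates 1 to 4 and between 1.69 and 2.07 on replicates 5 to 7, with no overlap, and the sets differed by 1.31 ± 0.16 (adjusted p = 2.66e-05). It did not pass on the 7 arrays (limma adjusted p = 0.0732). Of 17 immediate early genes Fos, Egr1 and Fosb held higher and none held lower, against 1.34% and 1.83% of all genes.

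Of 17 fatty acid synthesis genes, Scd2, Fasn, Srebf1, Elovl6 and Fads2 held higher, against 1.34% of all genes, with a list median of 0.28. None of the 5 held in all 7 fits that left out 1 array. Scd2, a desaturase, was at 1.11 ± 0.16 (n = 7, range 0.52 to 1.43, limma adjusted p = 0.0118) and did not pass without replicate 4 or 6 (adjusted p up to 0.0771). Fasn, fatty acid synthase, was between -0.04 and 0.93 on replicates 1 to 4 and between 1.48 and 1.98 on replicates 5 to 7. Of 19 cholesterol synthesis genes only Dhcr7 held. Of 24 G2/M genes Mki67, Foxm1 and Cenpe held higher (1.34% of all genes), again in none of these cases in all 7 such fits. Mki67, the proliferation marker Ki-67, was at 1.11 ± 0.21 (n = 7, limma adjusted p = 0.0495) and did not pass without replicate 1, 4, 5, 6 or 7 (adjusted p up to 0.22). The median of the G2/M list was 0.26, and 12 of its 24 genes passed higher and 1 lower in replicates 5 to 7. Cdk1, Top2a and Birc5, also G2/M genes, were between -0.07 and -0.03 and did not pass at 48 h. Of 26 G1/S and replication genes none held, where 3.17% of all genes did, so this 0 is near the background. In replicates 5 to 7, 11 of the 26 passed higher and 11 lower, against 19.3% and 19.2% of all genes. None passed in replicates 1 to 4.

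**Figure D5:**
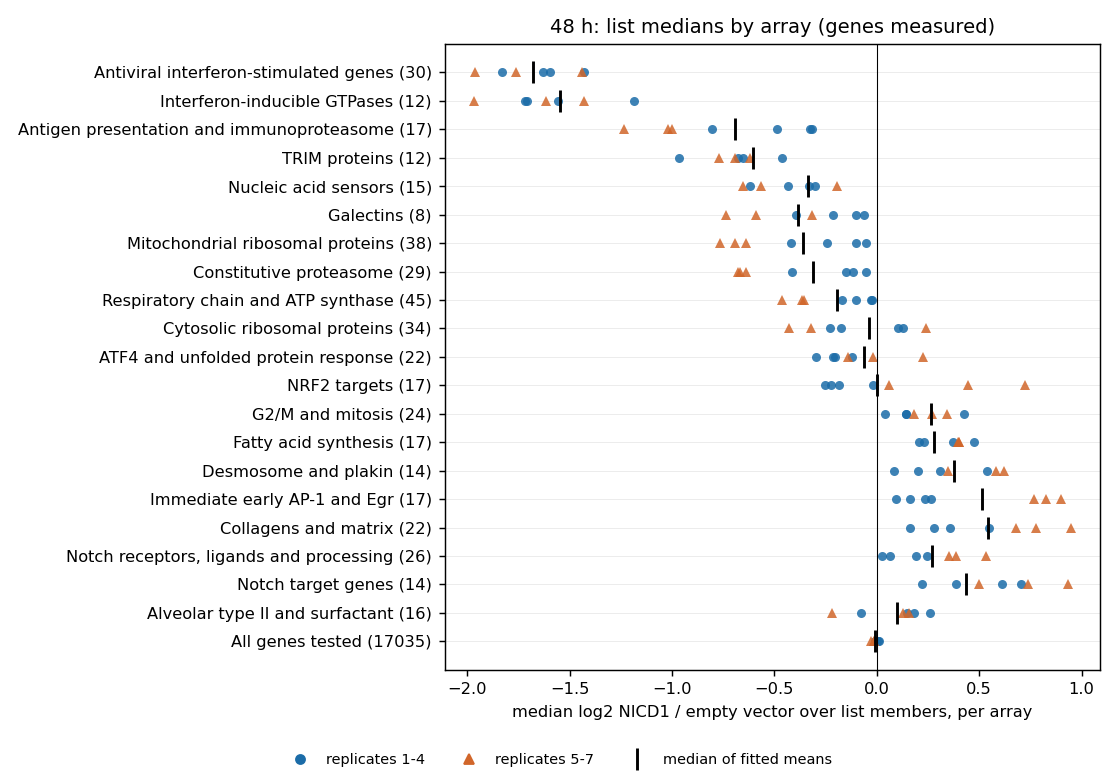
Median log2 ratio of NICD1 over empty vector over the members of each gene list on each 48 h array, with the number of genes measured in brackets, circles for replicates 1 to 4, triangles for replicates 5 to 7 and ticks for the median of the fitted means. The antiviral list lies between -1.96 and -1.43 on every array, whereas the constitutive proteasome, mitochondrial ribosomal and immediate early lists are farther from 0 on the triangles than on the circles.

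In replicates 5 to 7, where 19.3% of all genes passed higher and 19.2% lower, housekeeping lists had many members that passed, whereas 1.76% and 2.37% of all genes passed in replicates 1 to 4. Of 38 mitochondrial ribosomal protein genes, 25 passed lower and 1 higher in replicates 5 to 7 and 5 lower in replicates 1 to 4, and those 5 held. Of 29 constitutive proteasome genes 22 passed lower in replicates 5 to 7 and none in replicates 1 to 4, and of 45 respiratory chain genes 25 passed lower and 5 higher in replicates 5 to 7 and none in replicates 1 to 4. Of 34 cytosolic ribosomal protein genes 10 passed higher and 15 lower in replicates 5 to 7, and none in replicates 1 to 4. None of the proteasome, respiratory chain or cytosolic ribosomal genes held, where 3.17% of all genes did, so those counts of 0 are near the background. Among the genes that passed the test of the difference between the sets, the largest differences were in Pla2g2c, Tspyl3 and Arhgef33, which were higher in replicates 5 to 7 by 2.64, 2.55 and 2.48, and in H1f6, Wfdc15a and Tnfsf10, where the difference was -3.27, -3.24 and -2.89. Tnfsf10, the death ligand TRAIL and itself induced by interferon, had values on 5 arrays, from -5.79 to -1.47.

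The lists of lung epithelial markers were short. Beside the 3.17% of all genes that held, counts of 0 or 1 in lists this short do not show that the markers were stable. Of 16 alveolar type II and surfactant genes none held and none passed on the 7 arrays. Sftpc and Sftpb, which encode surfactant proteins C and B, were at -0.35 (range -1.93 to 0.78, limma adjusted p = 0.414) and 0.30 (range -0.22 to 0.90, limma adjusted p = 0.285), and the lipid transporter Abca3 at 0.41 ± 0.13 (n = 7, limma adjusted p = 0.111). Sftpc was at 0.19 in replicates 1 to 4 and -1.16 in replicates 5 to 7, which differed by -1.35 ± 0.26 (adjusted p = 0.000994). Of 14 alveolar type I genes only Cav1 held. Scgb1a1, the club cell secretory protein, was above 0 on all 7 arrays, from 0.01 to 2.38, and at 0.91 ± 0.22 it did not pass (n = 7, limma adjusted p = 0.0804). Of 13 ciliated genes none held. Of 12 basal genes Itga6, Krt17 and Ngfr held, at 0.56, 0.58 and 0.41, and the basal regulator Trp63 was at -0.10 (limma adjusted p = 0.66). Of 10 neuroendocrine genes only Nts held. Of 16 lung and endoderm transcription factors only Foxa1 held, at 0.39, while Foxa2 was near 0 on replicates 1 to 4, from -0.07 to 0.20, and between 1.37 and 2.04 on replicates 5 to 7 (adjusted p of the difference 2.35e-06). None of 10 leukocyte or 8 endothelial genes held or passed on the 7 arrays.

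The genes that held also differed in genomic length, the distance from transcript start to end in RefSeq. The median was 30.4 kb for the 229 that held higher, 14.8 kb for the 311 that held lower and 19.7 kb for the 16953 genes with a length. Among those lower, it was 13.5 kb for the 60 on the interferon-related lists and 14.9 kb for the other 251. Across 15393 genes with values on all arrays the rank correlation of the ratio with length was 0.177 to 0.183 on replicates 5 to 7 and -0.0041 to 0.117 on replicates 1 to 4. Its part in the results was not tested.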

How the data were processed

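Values were the authors' deposited log2 ratios, 1 column per array, as submitted with the series. Limma is the 1 tool named in the submitters' processing notes, version not given, and the sources used here give neither background correction nor normalization. The table held 45220 probe rows, and each 48 h array had values for 38012 to 39705 of them, 12.2 to 15.9% missing, with the missing values left out of the fits and not imputed. The number of arrays limits the precision, since single-channel intensities were not analysed here.

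Rows with 1 gene symbol (33653) were kept when they had at least 3 values on replicates 1 to 4 and 2 on replicates 5 to 7 (28629 rows), and rows of a gene were averaged, giving 17035 genes, 16953 of them in the RefSeq table of GRCm38.p6 through which symbols were updated. The columns of replicate 3 at 48 h and at 12 h were multiplied by -1. Limma 3.58.1 in R 4.3.3 fitted the 7 arrays of 48 h with a dye term (5 residual degrees of freedom), and all 20 arrays with coefficients for 12 h, 24 h, each 48 h set and dye (15). The second fit uses the spread at 12 and 24 h as well. P-values were adjusted by Benjamini-Hochberg over all genes, with a threshold of 0.05, and measure the spread between replicates. The method was tested on simulated data with independent noise and the same effect in both sets. That test did not cover sets that differ, as those here do.

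Genes named are the 15 highest and 15 lowest that held and passed on the 7 arrays, up to 5 held members of each list with the largest ratios (where fewer than 2 held, the 2 largest measured), Nrarp, Hes1, Hey1, Hey2, Heyl, Notch1, Notch3 and Cdh15, and the 3 largest differences between the sets each way. Other genes named were chosen after their values were seen. The lists and these choices were made with earlier results of these data known, and the split of the replicates is not in the labels. Same-numbered arrays of different times did not deviate together (correlations from -0.139 to 0.137, median 0.0032, 19 pairs), so the numbers were not treated as pairs.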

Additional observations from a re-analysis of the deposited data

Results flagged for a closer look

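In 10 of 154 named genes, 1 array of 48 h stood apart from the others by Dixon's test, which chance does in about 1 of 20 groups. Replicate 2 was high for Col6a1 (4.67, the other arrays 2.10 to 3.20) and for the neuroendocrine factor Neurod1 (2.01, the others -0.27 to 0.35, n = 6). Replicate 1 was high for Nts (5.23, the others 1.77 to 3.17), for the ciliated cell factor Rfx2 (3.68, the others -0.02 to 1.08) and for the lymphatic marker Lyve1 (1.502, the others -1.20 to -0.07). Replicate 6 was high for Hes1 (1.01, the others -0.21 to 0.30) and for the fibroblast receptor gene Pdgfra (1.53, the others -0.36 to 0.45). Replicate 3, the array whose column was turned, was high for Hey2 (0.83, the others -0.88 to -0.19) and low for Abca3 (-0.13, the others 0.29 to 0.57). Replicate 7 was closest to 0 for Tlr3 (-0.32, the others -1.35 to -0.99). The cause was not tested.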

How the results depend on the processing

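The counts of genes that passed, 233 on the 7 arrays, 703 in replicates 1 to 4, 6567 in replicates 5 to 7, 4259 for the difference and 540 that held, depended on single arrays. Leaving out 1 array at a time gave 97 to 247, 229 to 1039, 5266 to 6612, 2980 to 4401 and 183 to 736. The count for the 7 arrays was 110, 124, 97 and 135 without replicate 4, 5, 6 or 7. That for replicates 1 to 4 was 260 without replicate 1 and 229 without replicate 4, and the genes that held were then 223 (61 higher, 162 lower) and 183 (51 higher, 132 lower). With replicate 3 at 48 h as deposited, limma gave 0 on the 7 arrays (3877 at an unadjusted p under 0.05), 1 in replicates 1 to 4 (2095 unadjusted) and 0 that held (1208 unadjusted in both). Without the dye term the 7 arrays gave 402 (168 higher, 234 lower), replicates 1 to 4 gave 462, and 353 held. With arrays scaled to 1 median size, 841 passed on the 7 arrays (385 higher, 456 lower), 3844 in replicates 5 to 7 and 1128 for the difference. Rows fitted singly gave 1073 in replicates 1 to 4, 11301 in replicates 5 to 7 and 7686 for the difference, over more features. Array weights gave 528 on the 7 arrays (230 higher, 298 lower) and 459 in replicates 1 to 4. A replicate block over the 20 arrays gave 4738 for 48 h (2385 higher, 2353 lower). The 20 arrays with 1 coefficient for 48 h and no block gave 4746 (2391 higher, 2355 lower), so the block itself changed this count little. It left the other counts within 1.5 times. With both sets from the 48 h arrays alone, replicates 1 to 4 gave 107, the difference 1487 and 95 held (15 higher, 80 lower). With each set fitted by itself, replicates 1 to 4 gave 0 (1858 unadjusted), replicates 5 to 7 gave 2085, and 0 held (733 unadjusted in both). An adjusted p under 0.01 in both sets left 201 (51 higher, 150 lower), and a log2 ratio of at least 1 in both left 85 (15 higher, 70 lower). No named gene that passed on the 7 arrays changed sign under an alternative, but among those that did not pass, the sign of Cdh5, Cyp2b10, Myf6 and Pla2g2c turned when some 1 array was left out. Of the 68 named genes that passed on the 7 arrays, 42 passed without each array in turn. The cause of these shifts was not tested.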

Other observations

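Some of the genes that held lie close to each other on a chromosome. With at most 2 tested genes between neighbours, 99 of the 311 genes that held lower fell into 40 runs. Of the 229 that held higher, 25 fell into 12 runs. Over all genes 1.83% held lower and 1.34% higher. How many runs these shares alone would give was not worked out, so the counts are a description only. The longest run was the Oas cluster on chromosome 5, of the antiviral oligoadenylate synthetases, where 8 genes held lower between -2.10 and -1.05. The Ly6 genes Ly6e, Ly6i, Ly6c1 and Ly6c2 on chromosome 15, which encode small membrane-anchored proteins, held between -1.68 and -1.03, and the nuclear body genes Sp110 and Sp100 were part of a run on chromosome 1 between -1.92 and -1.17. Among higher genes the longest run was Col6a2, Col6a1 and Col18a1 on chromosome 10. Several of these runs are families whose copies can share probes, and their part in the result was not tested.

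Among 8400 probe rows that carry no single gene name, 4 held higher and 40 lower, 0.524% in all.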
